A study of Mus musculus with 12 samples.

Results

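Type I interferon stimulated genes were followed in 4T1 tumours of Balb/c mice. The 4T1 line derives from a mammary carcinoma of that strain and spreads to other organs without further manipulation. They were picked by name, as 35 genes that cells switch on in response to interferon alpha or beta. The rule used no measured value, but the list was drawn up with earlier results of these data known. All 35 had values in the mRNA table, out of 22769 genes not listed at 0 in all libraries. The stress group comprised 3 mRNA libraries from tumours of mice restrained 2 hours a day on 28 consecutive days, and the control group 3 mRNA libraries from tumours of mice without treatment. All tumours were removed 35 days after inoculation, and the animals shared strain, tumour line and time of sampling. The labels do not say whether each library came from its own mouse, so the p-values measure the spread between these libraries, which may be technical. The series' title names STAT3, a microRNA and the epithelial to mesenchymal transition, and the question addressed here is where the interferon stimulated genes stood in the same tumours.

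Type I interferons act through a receptor made of IFNAR1 and IFNAR2, whose kinases JAK1 and TYK2 phosphorylate STAT proteins, among them STAT2. These join IRF9 to form a complex that binds the interferon-stimulated response element (ISRE) in promoters and switches on genes that sense viral RNA, block viral replication or adjust the response itself. In tumours such genes can be expressed by cancer cells as well as by immune and stromal cells.

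The values were normalized log2 values of unknown depth, and no library stood apart in its median over the 14098 tested genes, which lay between 8.91 and 8.92. The epithelial identity of the tumours was apparent from the keratins and adhesion genes of carcinoma cells, whose summed level was 15.29 to 15.46 in stress libraries and 15.30 to 15.45 in control libraries. The keratin Krt5 alone of these 10 markers stood near the floor, at a mean of 0.10. Of the markers of other cell types tested, 0 passed by limma, and the summed levels of several types differed between the groups. Neutrophil markers had a summed level of 11.30 to 11.99 in stress libraries against 10.87 to 11.03 in control libraries, with 10 of 12 higher in stress. The neutrophil surface gene Ly6g, counted there as higher, was near the floor at -0.09. Of the 10 neutrophil markers tested, 9 were higher (90.0%, against 50.6% of all genes tested). Endothelial markers lay at 11.92 to 12.26 in stress libraries against 12.33 to 12.52 in control libraries, with 0 of 6 higher. Skeletal muscle markers lay at 11.40 to 12.85 in stress libraries against 12.42 to 13.98 in control libraries, overlapping, with 0 of 10 higher. Fibroblast markers lay at 16 to 16.51 in stress libraries against 16.34 to 17.46 in control libraries, overlapping as well, with 1 of 8 higher. Adipocyte markers lay at 7.93 to 8.29 in stress libraries against 8.37 to 8.97 in control libraries, with 0 of 4 higher. Of these 4, 3 were too low to be tested, and the summed level mostly reflects Fabp4, with a mean of 7.88 in stress and 8.55 in control libraries. T and NK cell markers lay, also with overlap, at 10.46 to 11.18 in stress libraries and 10.07 to 10.86 in control libraries, with 4 of 11 higher. The highest of them, Gzmb and Prf1, weigh most in this sum. Their means were 9.54 and 8.27 in stress libraries, against 9.22 and 7.90 in control libraries. The T cell genes Cd3e, Cd3d, Cd3g, Cd8a, Cd4 and Trac were all lower in stress, and the median difference of the 11 markers was -0.05. B cell markers, at 5.09 to 5.11 in stress libraries and 5.10 to 5.15 in control libraries, were all too low to be tested, with 1 of 4 higher. The part of these shifts in the interferon results was not tested. In bulk tissue, fewer cells of a type and less RNA per cell cannot be told apart.

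Because the ISRE is the element through which type I interferon acts on promoters, its core is shown for those of the 8 members with the smallest p-values whose windows hold it, for Ifit3 as the near copy of Ifit3b, and for Eif2ak2. RefSeq windows on GRCm38.p6, running from 250 bases before to 50 bases after the annotated start, were matched for 25 of the 35 members (29 windows, since some genes have more than 1 start). The ISRE core GAAANNGAAA, read on both strands, occurred in 13 of these 29 windows (44.8%), belonging to 12 of the 25 members, against 3.44% of all 32851 windows. The core of the gamma-activated site, TTCNNNGAA, occurred in 5 of the 29 windows (17.2%) against 8.30% of all windows. Each line gives 30 bases in the direction of the gene, with capitals for every base that is part of a match. A match describes these letters only.
Rsad2, chr12:26456553-26456582, minus strand: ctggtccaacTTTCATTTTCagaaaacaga
Oas3, chr5:120777715-120777744, minus strand: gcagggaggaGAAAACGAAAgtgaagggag
Ifit3b, chr19:34607793-34607822, plus strand: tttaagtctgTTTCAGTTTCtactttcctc
Ifit3, chr19:34583397-34583426, plus strand: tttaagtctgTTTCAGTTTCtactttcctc
Bst2, chr8:71537577-71537606, minus strand: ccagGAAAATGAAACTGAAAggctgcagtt
Ifih1, chr2:62646206-62646235, minus strand: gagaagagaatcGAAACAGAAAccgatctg
Eif2ak2, chr17:78882535-78882564, minus strand: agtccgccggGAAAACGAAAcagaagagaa

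The first base in capitals lay 120 bases upstream of the start in Rsad2, 75 in Oas3, 122 in Ifit3 and 154 in Ifit3b. In Bst2 the match nearest the start began 124 bases upstream, and the capitals before it belong to an overlapping match. In Ifih1 and Eif2ak2 the first base in capitals lay within the transcript, at base 33 and base 19. The lines of Ifit3 and Ifit3b are the same in all 30 bases, and that of Bst2 holds a pair of overlapping matches. Eif2ak2 is shown because it holds the same core as Oas3, while its mean was lower in the stressed tumours. The windows of Herc6 and Dtx3l, also among the members with the smallest p-values, held no match.

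No member passed the test of stress against control. Of the 35 members, 30 (85.7%) had a higher and 5 a lower mean in the stressed tumours, against 50.6% of the 14098 genes tested that were higher. The median difference was 0.11 on the log2 scale, against 0.00 over all genes tested, and single members ran from -0.21 to 0.57. By limma with adjustment over all 14098 genes, 0 members had an adjusted p under 0.05 and the smallest was 0.200, while 0.0213% of the genes tested were called higher and 0.0142% lower. At an unadjusted p under 0.05, 6 members were higher (17.1%) and 0 lower, against 8.26% of genes higher and 9.15% lower. In 4 members (11.4%) all stress libraries lay above all control libraries, against 12.1% of genes, and in 0 members all lay below, against 12.3% of genes. Genes of a shared response are not independent of each other, so these shares are descriptions. After quantile normalization 28 members were higher. Leaving out single libraries moved these figures. The median difference was 0.20 without control replicate 3 and 0.07 without control replicate 2. The count of 6 members became 13 without control replicate 3 and 10 without stress replicate 1, and it became 3 without stress replicate 2, 3 without stress replicate 3, 1 without control replicate 1 and 0 without control replicate 2.

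**Figure D1:**
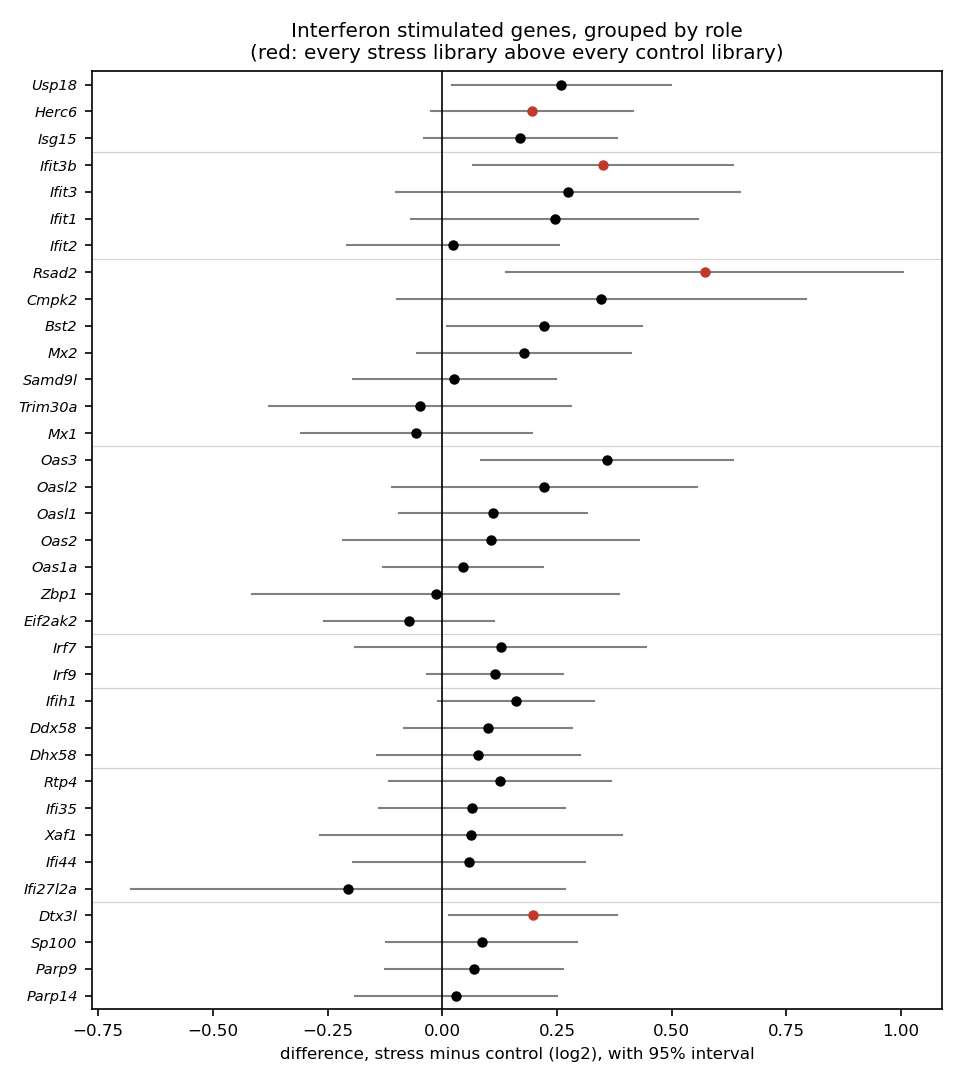
Difference between the stress and the control mean (log2) for each of the 35 members, grouped by role and divided by grey lines, with its 95% interval from limma; red points mark the 4 members whose stress libraries all lay above the control libraries. The intervals of 29 members hold 0, and Rsad2 lies furthest to the right at 0.57.

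The intervals, each for a gene taken alone, rest on the spread between these libraries, which may be technical. They bound the differences between animals only if each library came from its own mouse. The 95% intervals of the differences held 0 for 29 of the 35 members. Their upper bounds exceeded 0.5 for 7 members and 1 for a single member, Rsad2, and the lowest lower bound was -0.68, for Ifi27l2a. The spread between libraries of the same group was wide beside these differences. The members' median within-group SD was 0.144, against 0.0842 for the 9250 tested genes whose mean lay in the same range of 7.65 to 12.47. Their median absolute difference was 0.114, against 0.0858 for those genes. In 31 of the 35 members the 3 control libraries alone spanned more than the difference between the group means. How often this held over all genes tested is not given, so it is not shown to be particular to the members.

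The ISG15 system comprises Isg15, a ubiquitin-like protein attached to other proteins, Herc6, its main ligase in the mouse, and Usp18, which removes it again and also holds the receptor in check. All 3 had a higher mean in stress. Usp18 stood at 8.86, 9.05 and 8.82 in stress replicates 1 to 3, against 8.63, 8.49 and 8.82 in control replicates 1 to 3. The groups overlapped by 0.007, between stress replicate 3 and control replicate 3, and the other stress libraries lay above all controls. The Usp18 difference was 0.26 ± 0.10 (SE; 1.20-fold, limma adjusted p = 0.255). Herc6 stood at 10.88, 11.16 and 10.94 in stress libraries, against 10.87, 10.65 and 10.88 in control libraries. The groups did not overlap, but by only 0.002 between stress replicate 1 and control replicate 3, and the difference was 0.20 ± 0.09 (SE, adjusted p = 0.336). It was 0.11 with stress replicate 2 left out and 0.12 with control replicate 2 left out. Isg15 stood at 9.08 ± 0.13 in stress libraries and 8.91 ± 0.12 in control libraries (SD, n = 3 each), a difference of 0.17 (limma adjusted p = 0.370).

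The IFIT proteins bind viral RNA and keep it from being translated. The 4 members, Ifit1, Ifit2, Ifit3 and Ifit3b, lie in the same stretch of chromosome 19 (Ifit2 from 34550694, Ifit1 to 34650009). Ifit3b stood at 7.64, 7.75 and 8.08 in stress libraries, against 7.41, 7.43 and 7.59 in control libraries. Every stress library lay above every control library, with stress replicate 3 well above the rest, and the difference was 0.35 ± 0.12 (SE; 1.27-fold, limma adjusted p = 0.217), or 0.22 with stress replicate 3 left out. Its near copy Ifit3 stood at 8.74, 8.86 and 9.15 in stress libraries, against 8.63, 8.37 and 8.93 in control libraries. Here the groups overlapped, since control replicate 3 lay above both lower stress libraries, and the difference of 0.27 ± 0.16 had an adjusted p of 0.413. Leaving out control replicate 2 gave 0.14 for Ifit3, stress replicate 3 gave 0.16 and control replicate 3 gave 0.42. The pair is nearly identical: 55.3% of the 31-base words in the GENCODE M21 transcripts of Ifit3b also occur in another gene, nearly all of them in Ifit3, and 61.8% of those of Ifit3 occur in Ifit3b. How reads were divided between Ifit3 and Ifit3b is therefore uncertain. Ifit1 was 0.24 higher (adjusted p = 0.384), with stress replicate 3 at 9.11 as the highest library, and 0.12 higher with that library left out. Ifit2 stood at 9.50, 9.69 and 9.58 in stress libraries, against 9.42, 9.51 and 9.77 in control libraries. Its highest library was control replicate 3, and its difference was 0.02 ± 0.10 (adjusted p = 0.927).

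Rsad2, which encodes viperin, an enzyme that makes a chain-terminating nucleotide, had the smallest p and the widest range of the members. It stood at 9.02, 8.65 and 9.37 in stress libraries, against 8.51, 8.22 and 8.59 in control libraries. Every stress library lay above every control library, by 0.064 at the closest, and the stress libraries themselves were spread over more than the difference between the groups. The Rsad2 difference was 0.57 ± 0.18 (SE; 1.49-fold, limma adjusted p = 0.200, 95% interval 0.1386 to 1.005). Leaving out stress replicate 3 gave 0.39, and leaving out stress replicate 2 gave 0.75. Cmpk2, a mitochondrial nucleotide kinase, is the neighbour of Rsad2 on chromosome 12 (Rsad2 26442746 to 26456452 on the minus strand, Cmpk2 26469204 to 26479837 on the plus strand). Cmpk2 stood at 8.88, 8.77 and 9.25 in stress libraries, against 8.79, 8.23 and 8.84 in control libraries. Its libraries took the same order as those of Rsad2 within each group, and its difference of 0.35 ± 0.19 had an adjusted p of 0.385. The Cmpk2 difference was 0.15 with control replicate 2 left out and 0.20 with stress replicate 3 left out.

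**Figure D2:**
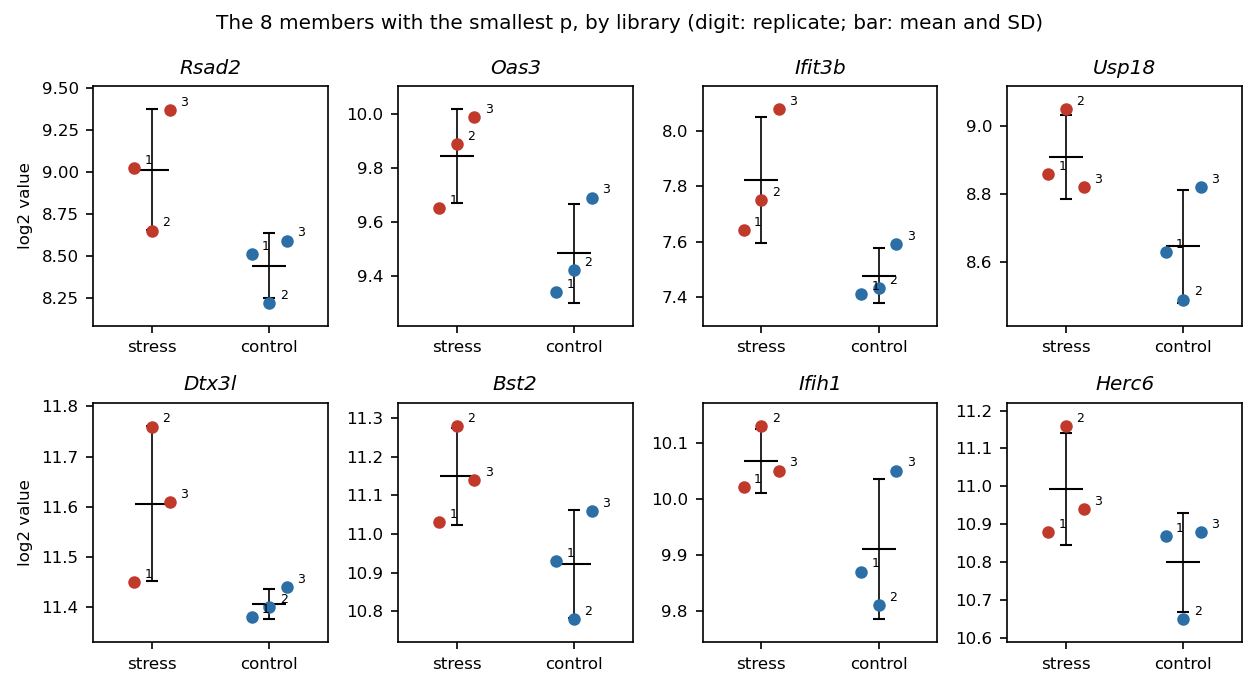
Log2 values of the 8 members with the smallest p-values in each library; digits give the replicate number, and bars the mean and SD of 3 libraries. Stress replicate 3 is the highest library for Rsad2, Oas3 and Ifit3b and stress replicate 2 for the other 5, and control replicate 3 is the highest control for all 8.

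Among the other antiviral effectors, Bst2, or tetherin, which holds budding virus at the cell surface, stood at 11.03, 11.28 and 11.14 in stress libraries, against 10.93, 10.78 and 11.06 in control libraries. Stress replicate 1 and control replicate 3 overlapped, and the Bst2 difference was 0.22 ± 0.09 (SE, limma adjusted p = 0.270). The Mx GTPases trap viral nucleoproteins. Mx2, annotated in GENCODE M21 as a polymorphic pseudogene, was 0.18 higher (adjusted p = 0.392). Mx1, whose gene is defective in most inbred laboratory mice, was 0.06 lower (-0.06, adjusted p = 0.819), with control replicate 3 at 8.66 as its highest library. Trim30a, a ubiquitin ligase that restrains signalling by Toll-like receptors, had a difference of -0.05 (adjusted p = 0.889). Samd9l, which restricts virus growth and cell proliferation, stood at 10.82, 11.13 and 10.88 in stress libraries, against 10.80, 10.94 and 11.01 in control libraries. The Samd9l groups overlapped, and the difference was 0.03 ± 0.09 (adjusted p = 0.912), with its sign reversed after quantile normalization (-0.002).

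The oligoadenylate synthetases make the activator of RNase L, which degrades viral RNA. Oas3 stood at 9.65, 9.89 and 9.99 in stress libraries, against 9.34, 9.42 and 9.69 in control libraries. Stress replicate 1 fell just short of control replicate 3, and the difference was 0.36 ± 0.12 (SE; 1.28-fold, limma adjusted p = 0.202). Its relatives on chromosome 5 had smaller differences, 0.22 for Oasl2 (adjusted p = 0.450), 0.11 for both Oasl1 (adjusted p = 0.537) and Oas2 (adjusted p = 0.722), and 0.05 for Oas1a (adjusted p = 0.783). Oas1a shares 68.8% of its 31-base words with other genes, most of them with Oas1g, so its reads cannot be assigned with certainty. The RNA-activated kinase PKR, Eif2ak2, and the nucleic acid sensor Zbp1, which can start necroptosis, had lower means in stress. Zbp1 stood at 10.74, 11.26 and 11.25 in stress libraries, against 11.12, 10.85 and 11.32 in control libraries. The groups lay over each other, and the Zbp1 difference was -0.01 ± 0.17 (SE, adjusted p = 0.975). Eif2ak2 had a difference of -0.07 (adjusted p = 0.662), with stress replicate 1 at 10.94 as its lowest library.

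The 3 RNA helicases that sense viral RNA in the cytosol all had higher means in stress. Ifih1, the sensor MDA5, stood at 10.02, 10.13 and 10.05 in stress libraries, against 9.87, 9.81 and 10.05 in control libraries. Control replicate 3 lay among the stress libraries and the other controls below them, and the difference was 0.16 ± 0.07 (SE, limma adjusted p = 0.309). Ddx58, which encodes RIG-I, was 0.10 higher (adjusted p = 0.537) and Dhx58, the regulatory helicase LGP2, 0.08 higher (adjusted p = 0.6997). The transcription factors of the response differed little. Irf7, which amplifies interferon production, had a difference of 0.13 (adjusted p = 0.655), and Irf9, the DNA-binding partner of STAT2, had one of 0.11 (adjusted p = 0.389) and the narrowest range of the 35 members, from 10.35 to 10.58.

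Of the genes for nuclear and ADP-ribosylation proteins, Dtx3l, a ubiquitin ligase that acts with PARP9, stood at 11.45, 11.76 and 11.61 in stress libraries, against 11.38, 11.40 and 11.44 in control libraries. The controls lay close together and below all stress libraries, by 0.013 at the closest, and the Dtx3l difference was 0.20 ± 0.08 (SE, limma adjusted p = 0.259), or 0.12 with stress replicate 2 left out. Dtx3l (35926511 to 35939151, minus strand) and Parp9 (35938470 to 35972605, plus strand) overlap at their starts on chromosome 16, and 9.68% of the 31-base words of Dtx3l occur in other genes, most of them in Parp9. Parp9 was 0.07 higher (adjusted p = 0.703). Parp14, a mono-ADP-ribosyltransferase, stood at 12.33, 12.67 and 12.46 in stress libraries, against 12.43, 12.38 and 12.56 in control libraries. Neither group was uniformly above the other, and its difference was 0.03 ± 0.09 (adjusted p = 0.899), with its sign reversed after quantile normalization (-0.02). Sp100, a component of nuclear bodies, was 0.09 higher (adjusted p = 0.647).

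The remaining members were Rtp4 (0.13 higher, limma adjusted p = 0.554), Ifi35 (0.06 higher, adjusted p = 0.736), Xaf1 (0.06 higher, adjusted p = 0.851), Ifi44 (0.06 higher, adjusted p = 0.816) and Ifi27l2a. Ifi27l2a had the largest difference towards lower values, -0.21 ± 0.20 (SE, adjusted p = 0.625). It stood at 7.99, 8.19 and 7.44 in stress libraries, against 7.83, 8.25 and 8.16 in control libraries. Its low mean in stress rested on stress replicate 3, without which the difference was 0.01.

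The members largely shared one order of single libraries within each group. Control replicate 3 was the highest of the 3 controls for 34 of the 35 members (97.1%), whereas it was the highest control for 28.7% of all genes tested. The exception was Ifi27l2a, where control replicate 2 was highest. Among the stress libraries, replicate 2 was the highest for 25 members (71.4%), against 32.2% of all genes tested, and replicate 1 the lowest for 24. Control replicate 2 was the lowest control for 22 members. Each member's value was set against its own mean over the 6 libraries, and the median of these deviations was -0.04, 0.14 and 0.07 in stress replicates 1 to 3, against -0.12, -0.17 and 0.08 in control replicates 1 to 3. The same median over all genes tested lay between -0.004 and 0.0003 in every library. Control replicate 3 stood above stress replicates 1 and 3 in the members' median deviation, and was the highest of all 6 libraries for 8 members, as was stress replicate 3, while stress replicate 2 was the highest for 18.

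**Figure D3:**
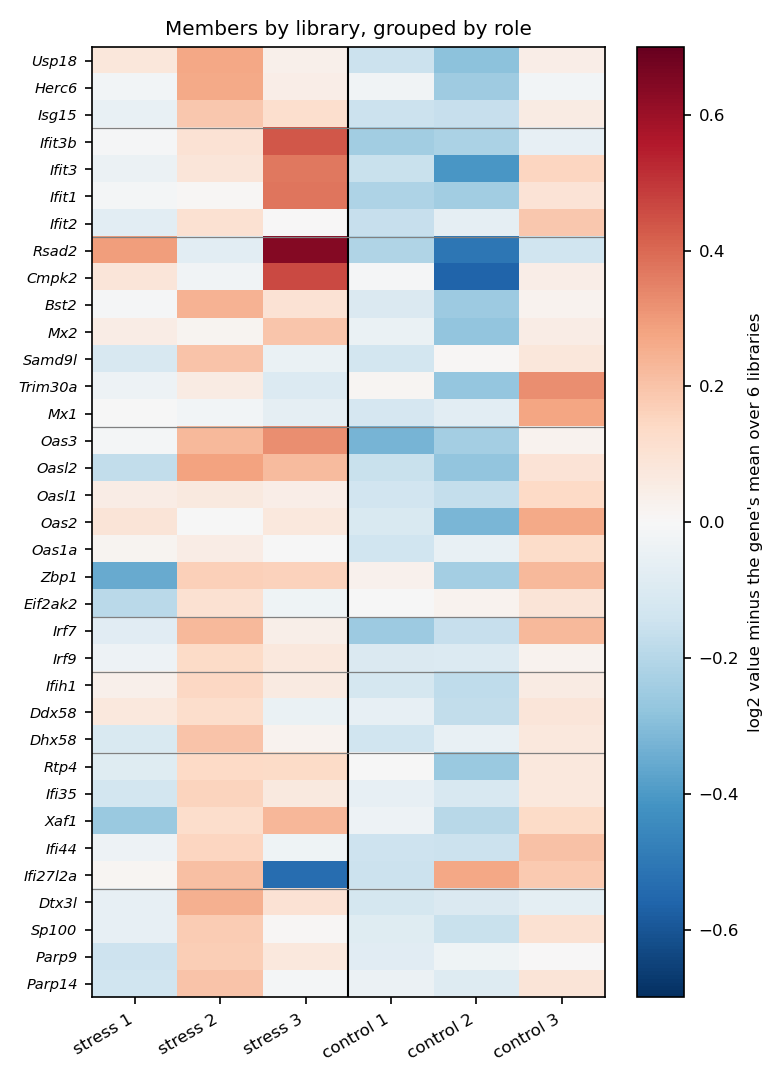
Log2 value of each of the 35 members in each library minus that member's mean over the 6 libraries, with members grouped by role. Control replicate 3 and stress replicate 2 are each above the member's mean for 31 members, stress replicate 3 for 26 and stress replicate 1 for 10. Stress replicate 3 is the darkest red in the rows of Rsad2, Cmpk2, Ifit1, Ifit3, Ifit3b, Oas3, Mx2 and Xaf1.

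**Figure D4:**
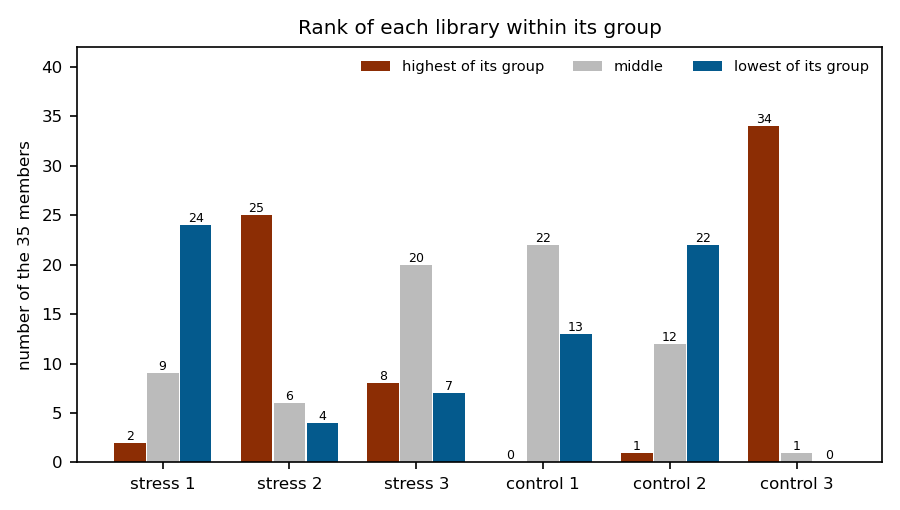
Number of the 35 members for which each library was the highest, middle or lowest of its own group. Control replicate 3 was the highest control for 34 members, stress replicate 2 the highest stress library for 25 and stress replicate 1 the lowest for 24.

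In 8 members stress replicate 3, not replicate 2, was the highest stress library. These were Ifit1, Ifit3, Ifit3b, Rsad2, Cmpk2, Oas3, Mx2 and Xaf1, and they were singled out after their values were seen. Neutrophil markers, at 11.62, 11.30 and 11.99 in stress replicates 1 to 3, were also highest in replicate 3. Macrophage markers, at 14.60, 14.80 and 14.37, were highest in replicate 2, with 4 of 10 higher in stress on average. Of these markers, Mrc1 and Cd163 were instead lowest in replicate 2. In control replicates 1 to 3, neutrophil markers stood at 10.99, 10.87 and 11.03, highest in replicate 3. Macrophage markers stood there at 14.53, 14.65 and 14.59, highest in replicate 2. The single macrophage markers were divided, however. C1qa, at 12.23, 12.09 and 12.18, was lowest in control replicate 2, as were C1qb and C1qc, while the others were highest there. The part of either cell type in the order of the members was not tested. Plasmacytoid dendritic cells, which produce much type I interferon, had markers at 7.26 to 7.45 in stress libraries and 7.25 to 7.69 in control libraries, with 0 of 5 higher in stress. Pacsin1, at a mean of 3.83, was too low to be tested. The other 4 were weakly expressed, with Ccr9 the highest at a control mean of 5.75. Conventional dendritic cells had markers at 8.72 to 8.83 in stress libraries and 8.77 to 9.05 in control libraries, with 0 of 7 higher. Among the controls the markers of both types of dendritic cell were highest in replicate 3, at 7.69 and 9.05.

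The other genes of the pathway showed no call either. Of the 20 interferon ligand genes, 14 were listed at 0 in all libraries and the other 6 had means below 4 and were not tested. Ifnb1, which encodes interferon beta, lay near the floor of the table at -0.54, -0.56 and -0.55 in stress libraries and -0.55, -0.56 and -0.56 in control libraries, so a difference in its mRNA was not detectable at this level. Of 9 receptor and signalling genes, 7 were higher (77.8%, against 50.6% of all genes tested) and 0 passed over all genes (median difference 0.07). At an unadjusted p under 0.05, 2 were higher (22.2%, against 8.26%) and 0 lower (against 9.15%), and in 3 all stress libraries lay above all controls (33.3%, against 12.1%). Ifnar2 stood at 10.09, 10.14 and 10.26 in stress libraries, against 10.08, 9.98 and 10.03 in control libraries, without overlap, and differed by 0.14 ± 0.06 (SE, limma adjusted p = 0.304). Ifnar1 was 0.09 higher (adjusted p = 0.400). The smallest p-values belonged to Irf2, a repressor of interferon stimulated genes (0.20 higher, adjusted p = 0.189), and the receptor kinase Tyk2 (0.14 higher, adjusted p = 0.236). Stat2 stood at 11.82, 12.18 and 12.13 in stress libraries, against 11.95, 11.88 and 12.10 in control libraries. The groups overlapped, with stress replicate 2 highest and replicate 1 lowest, and Stat2 differed by 0.07 (limma adjusted p = 0.778).

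Of 19 genes for nucleic acid sensing upstream of interferon, 10 were higher (52.6%, against 50.6% of all genes tested) and 9 lower, and 0 passed (median difference 0.02). At an unadjusted p under 0.05, 1 was higher (5.26%, against 8.26% of all genes tested) and 2 were lower (against 9.15%). The groups did not overlap in 4 with stress above control (21.1%, against 12.1%) and in 3 with stress below (against 12.3%). The smallest p belonged to the gene of the cytosolic DNA sensor cGAS, listed as Mb21d1, at 8.63, 8.71 and 8.51 in stress libraries, against 8.96, 8.90 and 8.93 in control libraries. All its stress libraries lay below all controls, with a difference of -0.31 ± 0.07 (SE, limma adjusted p = 0.1203). Ticam1, the adaptor TRIF of Toll-like receptors, followed at 0.16 higher (adjusted p = 0.238). Of 59 further interferon stimulated genes, 42 were higher (71.2%, against 50.6% of all genes tested) and 17 lower, with a median difference of 0.06 and 0 calls. At an unadjusted p under 0.05, 12 were higher (20.3%, against 8.26%) and 1 was lower (against 9.15%), and in 11 all stress libraries lay above all controls (18.6%, against 12.1%). The smallest p-values among these were those of Ifi203 and Mndal, DNA-binding proteins of the same family. Ifi203 stood at 12.70, 12.69 and 12.72 in stress libraries, against 12.36, 12.36 and 12.43 in control libraries, a difference of 0.32 ± 0.05 (SE, adjusted p = 0.0769). Mndal was 0.34 higher (adjusted p = 0.111). For both genes the stress libraries lay close together and above all controls.

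Genes induced mainly by interferon gamma were set beside the members because interferon gamma also signals through JAK kinases and STAT proteins. Of 22 such genes, guanylate-binding proteins and other GTPases, Irf1 and the chemokines of CXCR3, 11 were higher and 11 lower. Their median difference was 0.00, with 0 calls by limma. At an unadjusted p under 0.05, 0 were higher (against 8.26% of all genes tested) and 0 lower (against 9.15%). In 0 genes all stress libraries lay above all controls (against 12.1%), and in 0 all lay below (against 12.3%). Their median within-group SD was 0.311, against 0.144 for the members and 0.0854 for all genes tested. With this wider spread, their lack of small p-values does not by itself set them apart from the members. The smallest p-values were those of the chemokines Cxcl9 (-0.32, adjusted p = 0.584) and Cxcl11 (-0.22, adjusted p = 0.598). Stress replicate 2 was the highest stress library for all 22, and control replicate 3 the highest control for 14. Their median deviation from the mean of 6 libraries was -0.43, 0.44 and -0.05 in stress replicates 1 to 3, against 0.005, -0.05 and 0.05 in control replicates 1 to 3. The type I members had a median difference of 0.11 in the same libraries. Whether the lists differ was not tested.

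**Figure D5:**
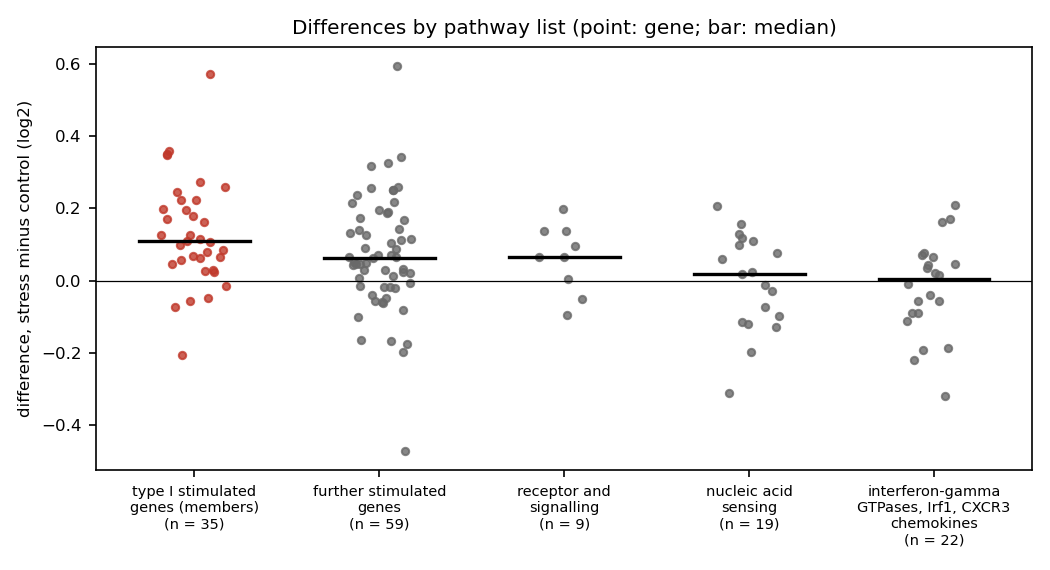
Difference between the stress and the control mean (log2) of each tested gene in 5 lists; points are genes and bars medians. The median lies at 0.11 for the 35 members, 0.06 for 59 further interferon stimulated genes, 0.07 for 9 receptor and signalling genes, 0.02 for 19 sensing genes and 0.00 for 22 genes of the interferon-gamma list.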

How the data were processed

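The mRNA table was named as raw counts, but the authors deposited normalized log2 values: the numbers are not whole, some lie below 0 (lowest -1.97, highest 17.85), and a gene at 0 is at 0 throughout. The base was taken as 2, since powers of 2 summed to 16946374 to 17694751 per library. The spread shrank at low values (median range 0.077 for means of 2 to 3, 0.262 for 9 to 10), so differences of weakly expressed genes are understated. Per the submitters' processing notes, the tools included kallisto 0.46.1 and bcl2fastq, and the genome was mm10. How the log2 values were made is not stated there or in the labels. Of 35453 rows, 12658 listed at 0 in all libraries and 26 named by a calendar date were left out. Stress and control were compared with limma 3.58.1 in R 4.3.3 (variance trend, robust), two-sided, without covariates, on 14098 genes with a mean of at least 4, with Benjamini-Hochberg adjustment over all of them at 0.05. The fit was tested on simulated data. The microRNA counts were not used here, and 1 gene of the receptor and signalling list is not reported here by name.

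The members and lists were chosen with earlier results of these data known. Values are given in full for the 8 members with the smallest and the 4 with the largest p, and for Ifit3 and Ifit3b; from each other list the 2 genes with the smallest p are named, and Stat2, Ifnar1, Ifnar2 and Ifnb1. Cmpk2 and Ifi27l2a were added after their values were seen. A summed marker level is the log2 of the summed powers of 2. Coordinates came from GENCODE M21 on GRCm38, the assembly of mm10. Alternatives were other filters (no minimum, or 6), no variance trend, quantile normalization, median centring, a replicate block and leaving out each library.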

Additional observations from a re-analysis of the deposited data

How the results depend on the processing

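Over 12 alternatives 0 members were called in any. Their median difference ran from 0.071 without control replicate 2 to 0.195 without control replicate 3, and was 0.0965 after quantile normalization. Members higher in stress numbered 24 (without stress replicate 2) to 33 (without control replicate 3). Over all genes, 4 higher and 7 lower were called with a minimum mean of 6, 1 and 1 without a variance trend, 3 and 5 after quantile normalization, and 0 and 0 with the replicate block. Leaving out single libraries gave 0 to 4 higher and 0 to 2 lower. Deviations of same-numbered libraries correlated at -0.079, 0.082 and -0.018 across genes, and those of other pairs at -0.136 to 0.155. With 3 libraries per group these values cannot show whether the replicate numbers pair the libraries, which the labels do not say. With the block the members' median difference was 0.11 and 7 members had an unadjusted limma p under 0.05, for which the share of all genes is not given.

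The sign held in every alternative for 21 members and changed in at least 1 for 14. After quantile normalization Parp14 was at -0.0236 and Samd9l at -0.002. With single libraries left out, the difference ran from -0.136 to 0.158 for Zbp1, -0.145 to 0.0033 for Eif2ak2, -0.051 to 0.125 for Ifit2, -0.0008 to 0.151 for Dhx58, -0.0035 to 0.176 for Ifi44, -0.0003 to 0.158 for Parp9 and -0.0623 to 0.107 for Parp14. It ran from -0.0674 to 0.0895 for Samd9l, -0.363 to 0.0111 for Ifi27l2a, -0.0387 to 0.21 for Xaf1, -0.0132 to 0.121 for Oas1a, -0.0264 to 0.266 for Oas2, -0.131 to 0.0676 for Mx1 and -0.195 to 0.103 for Trim30a. The cause of these moves was not tested.

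Depth is unknown, so no counting error can be given.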
